A study of Mus musculus with 7 samples.

Results

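The genes described here are 7 regulators of mRNA stability in neutrophils of the injured mouse liver, namely the Zfp36 family (Zfp36, Zfp36l1 and Zfp36l2), the gene of the endonuclease Regnase-1 (Zc3h12a), Btg1, Btg2 and Elavl1. They were chosen by symbol and not by a rule on their values, though with earlier results of these data known. Of the 7, 7 were found among the 16047 genes of the deposited table. All mice were of the C57BL/6 strain, and the study's methods give males of 8 to 12 weeks that received 300 mg/kg of acetaminophen after a fast of 12 h. Acetaminophen is toxic to hepatocytes and draws neutrophils and Ly6Chi monocytes into the liver (acetaminophen-induced liver injury, AILI). From 12 h before the challenge, mice of one group were injected with PBS and those of the other with medium that held MC-21, an antibody to CCR2 that depletes Ly6Chi monocytes, so that the comparison asks what the absence of these monocytes does to neutrophils. Livers were taken 24 h following AILI, and cells of the phenotype CD11b+Ly6CloCX3CR1-GFP-Ly6G+ were sorted from 4 PBS livers (PBS replicates 5, 6, 7 and 8) and 3 MC-21 livers (MC-21 replicates 2, 3 and 4), 1 library per liver. Both groups thus had the injury. The CX3CR1-GFP gate needs the GFP reporter allele of Cx3cr1, which the strain label does not mention. Cells were released by digestion for 45 min at 37 °C before the sort, and no library of undigested cells was part of the comparison.

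An mRNA is usually destroyed in steps, in which its poly(A) tail is shortened by deadenylases such as the CCR4-NOT complex, its cap is removed and the rest is degraded from either end. The proteins of the Zfp36 family bind AU-rich elements in the 3′ UTR of short-lived mRNAs, among them many cytokine mRNAs, and bring CCR4-NOT to them, while Regnase-1 cuts stem-loops in an overlapping set of inflammatory mRNAs. BTG1 and BTG2 bind the deadenylase subunits CNOT7 and CNOT8, and HuR, the product of Elavl1, binds AU-rich elements and often protects the mRNA. Several of these genes are immediate early genes, whose own mRNAs are induced fast and decay fast.

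The letters that the Zfp36 proteins read best are UAUUUAU, written here as TATTTAT, with the shorter core ATTTA inside them. Both were counted on the mRNA strand of the 3′ UTRs of mouse GENCODE M1 transcripts (mm9, 1 transcript per gene). TATTTAT was present in 5 of the 7 regulators, with 3 matches each in Zfp36, Zfp36l1 and Zfp36l2, 1 in Btg2, 8 in Elavl1 and 0 in Zc3h12a and Btg1. It was present in 25.4% of the 8545 genes tested in this series that have an annotated 3′ UTR, and longer 3′ UTRs held it more often. Of genes with a 3′ UTR of like length to that of Zfp36 (774 bases, from 80% of its length to that length divided by 0.8), 20.8% held at least 1 match and 0.763% at least 3. For the 4818 bases of Elavl1, 59.2% of genes of like length held at least 1 match and 0.275% at least 8. For Zfp36l1 and Zfp36l2, 3.50% and 3.58% of genes of like length held at least 3 matches. For Btg2, 39.1% held at least 1. Of genes of like length to Zc3h12a and Btg1, 21.3% and 55.3% held a match, which these regulators lacked. The core ATTTA was counted 3 times in Zfp36, 9 in Zfp36l1, 5 in Zfp36l2, 3 in Zc3h12a, 11 in Btg1, 5 in Btg2 and 18 in Elavl1, which was between 2.27 and 4.92 per kb, against 1.68 per kb over all these 3′ UTRs. The sites below show how the element looks in the regulators themselves and, for comparison, in the 3 most abundant mRNAs of a list of 10 tested Zfp36 targets. Each is 29 bases of the 3′ UTR, 5′ to 3′ on the mRNA strand, around the TATTTAT with the most ATTTA cores near it, and capitals mark TATTTAT. A match describes the letters only and does not show binding.
Zfp36, chr7:29161985-29162013, minus strand: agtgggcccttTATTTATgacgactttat
Zfp36l1, chr12:81209409-81209437, minus strand: ttatcaaaacgTATTTATtgccaaactat
Zfp36l2, chr17:84584254-84584282, minus strand: actatttaactTATTTATtatcttgtgaa
Btg2, chr1:135973826-135973854, minus strand: aaatgaagagcTATTTATacatgtttttt
Elavl1, chr8:4285776-4285804, minus strand: attTATTTATTTATTTATtttTATTTATt
Cxcl2 (target), chr5:91334358-91334386, plus strand: atttatctatgTATTTATTTATTTATtaa
Il1b (target), chr2:129190544-129190572, minus strand: aaccacttaccTATTTATTTATgtattta
Ier3 (target), chr17:35959426-35959454, plus strand: tgtctaattaaTATTTATgTATTTATgta
The sites of Zfp36, Zfp36l1, Zfp36l2 and Btg2 held a single TATTTAT, whereas that of Elavl1 held 4, in part overlapping, that of Cxcl2 held 3 and those of Il1b and Ier3 held 2 each. Every site lies in the last exon of its gene.

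The values are RPKM, in which the reads of a gene are scaled to the length of its transcript and to the number of reads mapped in the library. Most of the table's low values fall on multiples of what 1 read is worth, which gives the depth. In genes with 1 annotated coding transcript, 66.4% to 71.4% of a library's values above 0 and under 1 RPKM lay within 0.05 of a whole read. A level of 1 RPKM over 1 kb of transcript was then worth 1.59 reads in the shallowest library (MC-21 replicate 3) and 3.96 in the deepest (PBS replicate 8). With that depth, each regulator's 7 values came out as whole reads within 0.05 of a read for the length that fitted best, from which the reads behind each value are given. For Zfp36l1, Zfp36l2, Zc3h12a and Btg2 a length 2 times as long was whole as well and would double the reads. The shorter lengths were used, at 2984, 3532, 2805 and 3083 bases in that order. The longest annotated lengths of these genes were 2984, 3530, 2755 and 2743 bases. For Elavl1 the 3 neighbouring lengths that were whole gave the same reads. Differences are MC-21 minus PBS on log2(RPKM + 1), tested with limma over the 9594 genes whose mean level reached 1 RPKM, and this scale understates the change of low genes. The median difference of all these genes was -0.15, and 69.4% had a negative one. Of the neutrophil markers, S100a9 was at 12275 RPKM or more, S100a8 at 2538 or more and Csf3r at 270 to 328 RPKM in every library, while the sort marker Ly6g was at 16.3 to 69.0 RPKM, Mmp8 at 5.15 to 49.8 and Camp at 2.10 to 49.6 RPKM. Markers of other cells were present too, and the liver endothelial Clec4g, at 474 to 1539 RPKM, lay above Csf3r. Of 14 monocyte and macrophage markers tested, 13 had a negative difference and 4 were lower with an adjusted p under 0.05 by limma (Ccr2, C1qa, C1qb and C1qc), and the summed level of the list's 16 genes was 640 to 742 RPKM in PBS and 335 to 405 RPKM in MC-21 neutrophils. Ccr2, Ms4a7 and Vsig4 were each at 0 in 1 MC-21 library, and 0 of the 16 were at 0 in a PBS library. The summed level of 8 hepatocyte markers was 262 to 575 RPKM in PBS and 251 to 405 RPKM in MC-21 neutrophils, that of 6 liver endothelial markers 1027 to 2320 and 1176 to 2101 RPKM, and that of 8 lymphocyte markers 11.4 to 23.8 and 9.01 to 23.1 RPKM, with 0 of each list past an adjusted p of 0.05. The part of these cells in the values of the 7 regulators was not tested, and a change in how many cells of a type are present cannot be told apart here from a change of RNA per cell.

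Zfp36, which encodes tristetraprolin, was by far the most abundant of the 7 mRNAs and did not differ detectably between the groups. Its gene lies at chr7:29161803-29164274 on the minus strand and has 2 exons in the transcript used. In PBS neutrophils it was at 2004, 2037, 1969 and 1462 RPKM in replicates 5 to 8, and in MC-21 neutrophils at 2245, 1593 and 1224 RPKM in replicates 2 to 4, from 4474 to 14154 reads. The MC-21 libraries spanned the whole range, with the highest and the lowest value of all 7. With a mean of 1790 RPKM, Zfp36 stood at place 34 of the 9594 genes tested, in the top 0.354%. This place is by RPKM, and a place without the division by transcript length was not determined. The difference was -0.18 (SE 0.21, 95% confidence interval -0.65 to 0.29, adjusted p = 0.728 by limma), close to the median of all genes, so that a change within this interval was not resolved.

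Its paralogs Zfp36l1 (chr12:81208747-81214000, minus strand) and Zfp36l2 (chr17:84583271-84587287, minus strand), whose products bind the same kind of element, were more than an order of magnitude less abundant. Zfp36l1 was at 12.2, 43.7, 47.8 and 8.71 RPKM in PBS replicates 5 to 8 and at 57.8, 20.8 and 16.9 RPKM in MC-21 replicates 2 to 4. It was the least even of the 7 genes, high in PBS replicates 6 and 7 and in MC-21 replicate 2 and low in the other 4 libraries, and the highest value was 6.63 times the lowest. The groups overlapped in part, with PBS replicates 5 and 8 below every MC-21 library and MC-21 replicate 2 above every PBS library. The coefficient of variation was 72.8% among PBS and 70.9% among MC-21 libraries, whereas the counting of 99 to 616 reads alone gives 7.83% and 7.93%. The difference between the groups was 0.30 (SE 0.62, 95% confidence interval -1.09 to 1.70, adjusted p = 0.850 by limma). Without PBS replicate 8 it was -0.11 and without MC-21 replicate 2 it was -0.22. A long noncoding RNA gene, Gm17591, is annotated on the opposite strand over Zfp36l1, and the sources used here do not say whether strand was used in counting.

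Zfp36l2 was at 13.7, 37.7, 31.0 and 23.4 RPKM in PBS and at 20.4, 14.4 and 16.6 RPKM in MC-21 neutrophils, from 81 to 443 reads. Of the PBS libraries 3 lay above every MC-21 library, and PBS replicate 5 lay below all 3. The difference was -0.52 (SE 0.30, 95% confidence interval -1.21 to 0.16, adjusted p = 0.466 by limma), and it was negative under each of the alternatives tried, between -0.79 and -0.33. Within the family, Zfp36 accounted for 93.2% to 97.7% of the reads of the 3 genes in every library, Zfp36l1 for 0.967% to 4.10% and Zfp36l2 for 1.34% to 3.45%.

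**Figure D1:**
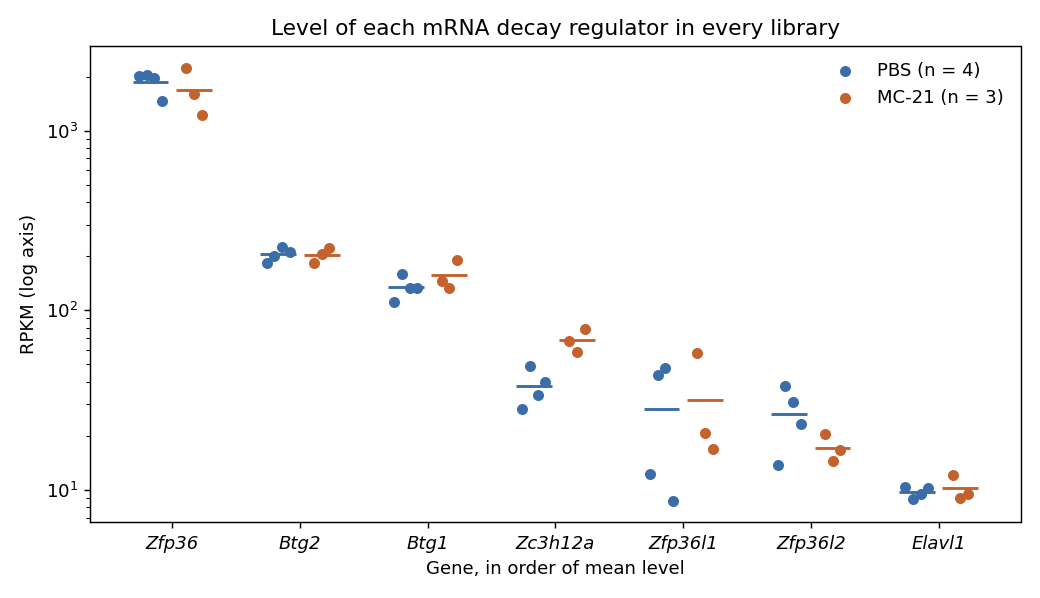
RPKM of the 7 regulators (log axis) in each of the 4 PBS and 3 MC-21 libraries, 1 point per library with a bar at the group mean, ordered by mean level. Zfp36 lies near 1790 RPKM, the values of Zfp36l1 are split within both groups, and Zc3h12a is the one gene whose groups do not overlap.

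Zc3h12a, whose product Regnase-1 cleaves inflammatory mRNAs and is itself cut by the protease MALT1, had the largest difference of the 7. The gene lies at chr4:124795667-124805084 on the minus strand and has 6 exons. It was at 28.4, 48.7, 33.8 and 39.7 RPKM in PBS replicates 5 to 8 and at 67.2, 58.2 and 78.2 RPKM in MC-21 replicates 2 to 4, from 220 to 673 reads. All 3 MC-21 libraries lay above all 4 PBS libraries. The mean was 37.6 ± 8.71 RPKM (SD, n = 4) in PBS and 67.9 ± 9.998 RPKM (SD, n = 3) in MC-21 neutrophils, 1.80-fold higher on the log2(RPKM + 1) scale (difference 0.85, SE 0.20, 95% confidence interval 0.40 to 1.30). The unadjusted p of 0.0019 by limma became 0.109 after Benjamini-Hochberg adjustment over all genes, which misses the threshold of 0.05, and the two-sided exact permutation test gave p = 0.0571, where the smallest value that 35 splits allow is 0.0286. Under the alternatives tried, the difference stayed between 0.73 and 1.01 and the adjusted p between 0.0545 and 0.297. Marker genes differed in the same libraries. The neutrophil markers S100a8, S100a9 and Retnlg had unadjusted p-values under 0.05 with positive differences, Camp one with a negative difference (all 4 named after their values were seen), and the monocyte and macrophage markers above went the other way. Their part in the level of Zc3h12a was not tested.

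Zc3h12a was the only one of the 7 without overlap between the groups, against 13.3% of the 9594 genes tested. An adjusted p under 0.05 by limma was reached by 0 of the 7, against 0.625% of all genes tested (60 genes, of which 19 were higher and 41 lower in MC-21 neutrophils). At an unadjusted p under 0.05, 1 of the 7 was called, against 14.7% of all genes. By direction, 1 of the 7 was higher, against 3.59% of all genes, and 0 were lower, against 11.2%. This balance of all genes depends on the scaling, with 344 higher and 1071 lower as given, 672 and 428 with centred libraries and 575 and 503 under quantile normalization, while the count for the 7 was 1 higher and 0 lower in each. Without PBS replicate 5, Zfp36l2 was lower too (-0.79, unadjusted p = 0.0065 and adjusted p = 0.223 by limma), which makes 2 of the 7. The median difference of the 7 was 0.05, beside -0.15 for all genes. One call in 7 is close to the background share for either direction.

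Btg1 (chr10:96079635-96085447, plus strand) and Btg2 (chr1:135971747-135975697, minus strand), antiproliferative genes whose products promote deadenylation, were the next most abundant after Zfp36. Btg1 was at 112, 159, 133 and 133 RPKM in PBS and at 145, 133 and 191 RPKM in MC-21 neutrophils. MC-21 replicate 4 was the highest and PBS replicate 5 the lowest, and the other libraries of the groups overlapped. The difference was 0.21 (SE 0.17, 95% confidence interval -0.17 to 0.60, adjusted p = 0.614 by limma).

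Btg2 had the smallest ratio of highest to lowest value over the 7 libraries, 1.23, at 184, 199, 225 and 210 RPKM in PBS and at 184, 206 and 221 RPKM in MC-21 neutrophils. The group means were 205 ± 17.4 RPKM (SD, n = 4) and 204 ± 18.7 RPKM (SD, n = 3), the coefficients of variation 8.53% and 9.17%, and the difference -0.01 (SE 0.13, 95% confidence interval -0.30 to 0.29, adjusted p = 0.984 by limma). Its sign changed with the scaling, to 0.16 with libraries centred on their medians. As a fold on this scale, the interval runs from 0.812 to 1.22.

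Elavl1 (chr8:4284782-4325100, minus strand), whose product HuR competes for AU-rich elements, was the least abundant, at 10.4, 8.86, 9.54 and 10.3 RPKM in PBS and at 12.0, 9.06 and 9.54 RPKM in MC-21 neutrophils, from 87 to 259 reads. Its coefficient of variation among PBS libraries, 7.45%, was about that of read counting alone, 7.41%, so a smaller spread could not have been seen at this depth. Among MC-21 libraries it was 15.6%, against 8.49% from counting. The groups overlapped and differed by 0.05 (SE 0.17, 95% confidence interval -0.33 to 0.42, adjusted p = 0.917 by limma). The RPKM of Zfp36 was between 128.3 and 229.8 times that of Elavl1 in the 7 libraries.

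**Figure D2:**
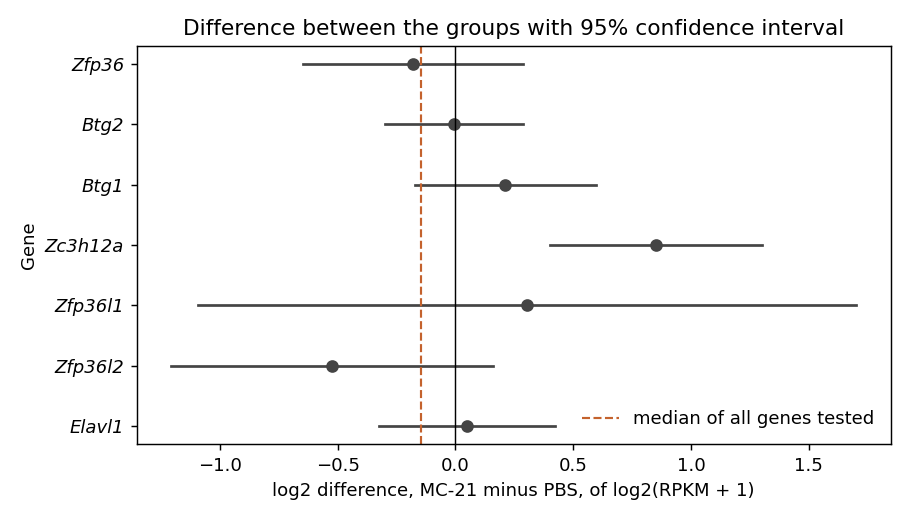
Difference MC-21 minus PBS of log2(RPKM + 1) for the 7 regulators (points) with 95% confidence intervals from limma (bars), beside 0 (solid line) and the median of all 9594 genes tested (dashed line, -0.15). The interval of Zc3h12a, 0.40 to 1.30, lies above both lines, and the intervals of the other 6 hold 0.

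Ordered by mean RPKM, the 7 genes ran from Zfp36 (1790) over Btg2 (204), Btg1 (144), Zc3h12a (50.6), Zfp36l1 (29.7) and Zfp36l2 (22.4) to Elavl1 (9.97). Neighbours in this order were compared within each library by a two-sided exact sign-flip permutation test on log2(RPKM + 1), adjusted over the 6 pairs. In 4 pairs the upper gene was higher in 7 of 7 libraries (adjusted exact p = 0.0234, the smallest that these tests gave). Zc3h12a and Zfp36l1 were not separated (difference 0.95, higher in 6 of 7 libraries, adjusted exact p = 0.0938), nor were Zfp36l1 and Zfp36l2 (0.19, higher in 5 of 7, adjusted exact p = 0.547). Division by transcript length matters for this order, since a 3′ library takes its reads from the end of the mRNA whatever its length. In RPM, reads scaled to library size without that division, Btg1 (720) stood above Btg2 (629), with a log2 difference of Btg2 minus Btg1 of -0.18 that did not pass (adjusted exact p = 0.164), and Zfp36l2 was no longer separated from Elavl1 (0.31, adjusted exact p = 0.338). For Btg2 and Zfp36l2 these RPM values rest on the shorter of the 2 lengths that fitted. Zfp36 stayed above all others, at 3160 RPM.

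Zfp36 and Zc3h12a were also set against each other within each library. The RPKM of Zfp36 was 70.6, 41.8, 58.3 and 36.8 times that of Zc3h12a in PBS replicates 5 to 8 and 33.4, 27.3 and 15.7 times in MC-21 replicates 2 to 4, without overlap. This ratio was looked at after the values of both genes were seen, and it was not tested. Its size depends on the division by transcript length, which is the same in every library. In RPM the means over all libraries were 3160 for Zfp36 and 142 for Zc3h12a, which lie closer together.

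**Figure D3:**
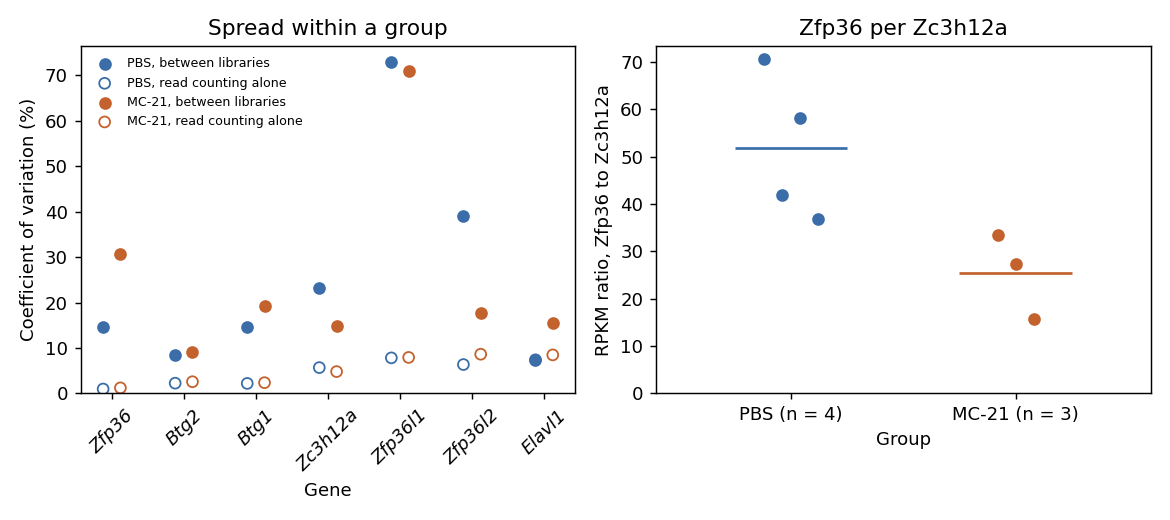
Left, coefficient of variation (%) of each regulator's RPKM between the libraries of a group (filled points) and that expected from read counting alone (open points), for 4 PBS and 3 MC-21 libraries. Right, RPKM of Zfp36 divided by that of Zc3h12a in each library, with a bar at the group mean; Zfp36l1 stands out on the left with 72.8% and 70.9%, and on the right the PBS libraries lie between 36.8 and 70.6 and the MC-21 libraries between 15.7 and 33.4.

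For each of the 7, the 3 genes with the most similar profile over the 7 libraries were sought by Pearson's r of log2(RPKM + 1) among the 4135 genes whose mean reached 10 RPKM. The libraries of a group share its treatment, and with so many genes and so few libraries high values were found for every regulator. Nfil3, Ltc4s and Bhlhe40 followed Zc3h12a (r = 0.983, 0.982 and 0.982). Zfp36l1 was followed by Ptges3 and Dusp1 (r = 0.975 and 0.966), and Zfp36 by Zfand5, C5ar1 and Il15 (r = 0.979, 0.978 and 0.977). Gdpd3, Otulin and Acp5 were nearest to Zfp36l2 (r = 0.974, 0.945 and 0.942) and Sp3os, Surf4 and Ncf4 to Btg1 (r = 0.976, 0.962 and 0.944). The least close neighbours were those of Btg2 (Nt5c2 and Otud5, r = 0.919 and 0.913) and Elavl1 (Pccb, Slc38a2 and Pradc1, r = 0.918, 0.916 and 0.911), the genes with the least spread. None of the 7 was among the 3 genes nearest to another.

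In the decay machinery that these regulators engage, 0 genes of the lists in this paragraph had an adjusted p under 0.05 by limma, and the counts at an unadjusted p under 0.05 stand beside 14.7% of all genes. Of 14 deadenylase genes, namely subunits of CCR4-NOT, which Zfp36 and the BTG proteins engage, and of PAN2-PAN3, and the separate enzyme Parn, 0 had an unadjusted p under 0.05, and the median difference was -0.16. Of 15 genes of decapping and 5′-to-3′ decay tested, 1 was lower at an unadjusted p under 0.05, Lsm7 of the LSM ring that binds shortened tails (-0.54, unadjusted p = 0.0359 and adjusted p = 0.312 by limma, named after its values were seen), with a median of -0.09. All 13 tested genes of the RNA exosome and Ski complex, which degrade the mRNA from its 3′ end, had negative differences, between -0.42 and -0.01, with a median of -0.16 beside -0.15 for all genes, and 0 had an unadjusted p under 0.05. With centred libraries, and likewise under quantile normalization, 7 of these 13 were positive and 6 negative. The same count was 0 of 7 for nonsense-mediated decay (median -0.07), 0 of 16 for other RNA-binding regulators of cytokine mRNAs (median -0.11) and 0 of 12 for genes that act on the Zfp36 and Regnase-1 proteins (median -0.04), such as the p38 kinase pathway and MALT1. Centring turned these unadjusted calls to 2 higher deadenylase genes, 1 higher gene of decapping, 2 higher other RNA-binding regulators and 1 higher gene acting on the proteins, with 0 lower in each of these lists and again 0 after adjustment. With centred libraries, 7% of all genes tested were higher and 4.46% lower at that unadjusted p. Zfp36l3, the remaining member of the Zfp36 family, and the neuronal paralogs of Elavl1, Elavl3 and Elavl4, were at most at 0.138 RPKM in a library. Zc3h12c, a relative of Zc3h12a, and Rc3h2, the gene of Roquin-2, stayed under 1 RPKM in every library.

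Among mRNAs that the Zfp36 proteins are known to target, 6 of 10 tested were higher in MC-21 neutrophils at an unadjusted p under 0.05 (Cxcl1, Cxcl2, Ccl2, Ccl3, Ier3 and Mcl1), against 3.59% of all genes tested. None of the 10 was lower at that p, against 11.2% of all genes, and 0 had an adjusted p under 0.05, the lowest being 0.194 by limma. With centred libraries 7 of the 10 were higher and 0 lower, against 7% and 4.46% of all genes. Under quantile normalization 6 were higher and 0 lower, against 5.99% and 5.24%. The groups overlapped for Ccl2, Ccl3 and Mcl1. The median difference of the 10 was 0.57, beside -0.15 for all genes. The list was chosen with earlier results of these data known, so these counts are not an independent test of the targets. In the same libraries the 10 neutrophil markers had a median of 0.42, with a summed level of 18000 to 30453 RPKM in PBS and 27367 to 40780 RPKM in MC-21 neutrophils, and the 14 monocyte and macrophage markers a median of -0.79, with the sums given above. Their part in the levels of the targets was not tested. Cxcl2, a chemokine that attracts neutrophils, was at 7687, 11967, 12755 and 9603 RPKM in PBS and at 15710, 14212 and 16233 RPKM in MC-21 neutrophils, without overlap (difference 0.58, SE 0.17, adjusted p = 0.194 by limma). The related Cxcl1, a target of Regnase-1 as well, was far lower, at 16.4, 25.3, 32.9 and 17.02 RPKM in PBS and at 38.1, 48.3 and 34.1 RPKM in MC-21 neutrophils, again without overlap (0.83, SE 0.25, adjusted p = 0.197 by limma). Ier3, an immediate early gene, was at 756 to 941 RPKM in PBS and 977 to 1580 RPKM in MC-21 neutrophils (0.57, SE 0.17, adjusted p = 0.197 by limma). Il1b, the abundant cytokine mRNA at a mean of 7178 RPKM, overlapped between the groups (0.09, SE 0.13, adjusted p = 0.799 by limma). Tnf, the best known target, had the one negative difference of the 10 (-0.43, SE 0.20, adjusted p = 0.364 by limma; named after its values were seen), at 101 to 145 RPKM in PBS and 74.4 to 117 RPKM in MC-21 neutrophils. TATTTAT was present in the 3′ UTR of 9 of the 10, with 8 matches in Tnf, 7 in Cxcl2, 6 in Cxcl1, 4 in Ier3, 3 in Il1b and 0 in Ccl2. Of genes of like 3′ UTR length, from 7.21% (for Ccl2) to 40.4% (for Mcl1) held at least 1 match. The list names targets of proteins that bind AU-rich elements, so its members were likely to hold the motif and the count is no test. The count of 6 fell to 3 without MC-21 replicate 2 and to 3 without MC-21 replicate 4, and the median lay between 0.37 and 0.73 over all alternatives. Without PBS replicate 5, and likewise without MC-21 replicate 2, 1 of the 10 was lower at an unadjusted p under 0.05 by limma. A level of mRNA does not say how fast it decays, and decay was not measured.

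Of the 9 listed targets of Regnase-1, 5 were tested, of which 1, Cxcl1, was higher at an unadjusted p under 0.05 (3.59% of all genes) and the median difference was 0.09. The 3 most abundant were Il1b, Nfkbiz and Cxcl1. Among 12 immediate early genes, the class to which Zfp36 and Btg2 are usually counted, Ier3 was higher and Atf3 and Nr4a1 were lower at an unadjusted p under 0.05, beside 3.59% and 11.2% of all genes. With centred libraries 2 were higher and 1 was lower, beside 7% and 4.46% of all genes. After adjustment 0 passed by limma. The median was -0.02. Atf3, a stress-induced transcription factor, was at 111 to 143 RPKM in PBS and 82.4 to 101 RPKM in MC-21 neutrophils, without overlap (-0.52, SE 0.14, adjusted p = 0.165 by limma). Dusp1, the most abundant of the 12, whose product turns off the p38 pathway that inactivates tristetraprolin, was at 2145 to 2791 RPKM in PBS and 2267 to 2825 RPKM in MC-21 neutrophils, with overlap.

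**Figure D4:**
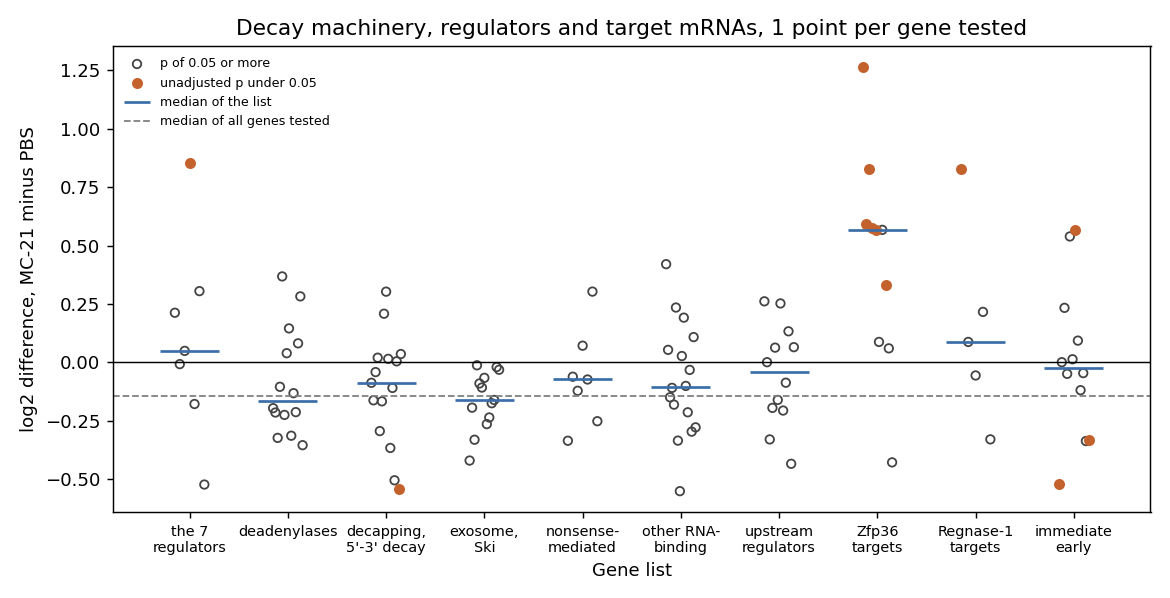
Difference MC-21 minus PBS of log2(RPKM + 1) for each gene tested, 1 point per gene, in the 7 regulators and 9 lists of the decay machinery, its regulators and target mRNAs. The lists were chosen with earlier results of these data known. Filled points have an unadjusted p under 0.05 by limma, blue bars are list medians and the dashed line is the median of all genes tested (-0.15); the 10 Zfp36 targets have a median of 0.57, and Zc3h12a is the filled point among the 7 regulators.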

How the data were processed

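The authors sequenced 3′ RNA-seq libraries of sorted neutrophils, aligned them to the mm9 genome with HISAT 0.1.5, handled the alignments with SAMtools and deposited RPKM values per gene from Partek 6.6. Annotation, strand, multi-mapping reads and molecular barcodes are not given in the sources used here. RPKM values are not counts, so count models were not run. All 7 columns were matched to livers by label. Separate livers are the replicates.

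log2(RPKM + 1) was compared (4 PBS, 3 MC-21) with limma 3.58.1 in R 4.3.3 (lmFit, eBayes with a trend) over genes whose mean level reached 1 RPKM, with Benjamini-Hochberg adjustment, and with two-sided exact permutation tests over 35 splits. Depth and reads were recovered from RPKM steps. For this, the transcript length between 300 and 8000 bases that left the smallest remainder was taken. In 2 of the 7 regulators it was an annotated GENCODE M1 length, and the counting spreads drawn from these reads cover counting error only, whereas the confidence intervals come from limma and cover the spread between livers. No 50-base stretch of the 7 genes' coding transcripts was found in those of another gene. Alternatives were a pseudocount of 0.1, no filter or a mean of 5 RPKM or more, median centring, quantile normalization, no trend, RPM (reads scaled to library size only) and leaving out each library. The limma script was tested on simulated data.

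The members and lists were chosen with earlier results of these data known. Named are the 7 regulators; in each list the genes with an adjusted p under 0.05 and the 2 with the largest difference among those with an unadjusted p under 0.05 and no overlap; in the target and immediate early lists also the 3 most abundant; and the 3 genes most like each regulator, of which 2 in all are not reported here. Sites were read from GENCODE M1 transcripts and checked against the mm9 genome. Python 3.11.15, numpy 2.4.6, pandas 2.3.3, scipy 1.17.1 and matplotlib 3.10.9 were used.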

Additional observations from a re-analysis of the deposited data

Results flagged for a closer look

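In the PBS neutrophils, Zfp36 had 1 library apart from the other 3. Replicate 8 was at 1462 RPKM, below 1969, 2004 and 2037 RPKM, and this gap was 0.881 of the group's whole range, above the 95% critical value of Dixon's test for 4 libraries. The 1462 RPKM rest on 10219 reads in the deepest library, and MC-21 replicate 4, at 1224 RPKM, was lower still. Of the 7 regulators, 1 met this criterion, which chance meets in about 1 of 20 groups.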

How the results depend on the processing

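0 of the 7 regulators had an adjusted p under 0.05 by limma in any alternative tried. The differences of Zfp36l2, Zc3h12a and Btg1 kept their sign throughout. Leaving out 1 library at a time, the difference of Zfp36 ran from -0.41 to 0.031, the upper end without MC-21 replicate 4, that of Zfp36l1 from -0.22 (without MC-21 replicate 2) to 0.67, that of Btg2 from -0.069 to 0.063 and that of Elavl1 from -0.064 (without MC-21 replicate 2) to 0.12. Btg2 also changed sign when libraries were centred on their median (0.16) and under quantile normalization (0.0098). The background is less stable than these values. The 60 genes called became 6 without a filter on low values and between 9 (without PBS replicate 8) and 102 (without PBS replicate 6) with a library left out. Centring gave 44 higher and 30 lower calls and quantile normalization 26 and 29, against 19 and 41. In RPM (reads scaled to library size only), the mean log2 difference changed sign for Btg2 over Btg1 (-0.18) and for Zfp36l1 over Zfp36l2 (-0.052, with the mean RPM of Zfp36l1 still the higher), and Zfp36l2 over Elavl1 no longer passed (0.31). With a library left out, Zc3h12a over Zfp36l1 ran from 0.76 to 1.195, passing without PBS replicate 7, and Zfp36l1 over Zfp36l2 from -0.023 to 0.44. The cause was not tested. Elavl1, Zfp36l1 and Zfp36l2 had fewer than 100 reads in their lowest library. Of these, only Elavl1 had a spread about that of read counting alone, in PBS neutrophils. Zfp36l1 and Zfp36l2 varied more than that in both groups. For Zfp36l2 the coefficient of variation was 38.9% against 6.37% from counting in PBS, and 17.6% against 8.64% in MC-21 neutrophils. No paired analysis was possible because the labels give nothing by which livers of the groups could be paired.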

Other observations

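PBS replicates 6 and 7 and MC-21 replicate 2, high in Zfp36l1, also held the 3 highest values of other listed genes. These genes were picked after their values were seen. Ppp2ca, the catalytic subunit of the phosphatase PP2A, was at 7.50, 25.7, 33.5 and 10.3 RPKM in PBS replicates 5 to 8 and at 28.6, 13.7 and 6.71 RPKM in MC-21 replicates 2 to 4. Ptgs2, which encodes the inducible cyclooxygenase, was at 7.30, 36.4, 18.9 and 14.4 RPKM in PBS and at 45.8, 8.73 and 12.5 RPKM in MC-21 neutrophils. In both genes the same 3 libraries held the 3 highest values. For Ptgs2 they were not set apart as a group, since PBS replicate 7 (18.9 RPKM) lay near PBS replicate 8 (14.4 RPKM). The labels give no batch or date for these libraries, and the pattern was not tested.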
